A study of Homo sapiens with 6 samples.

Results

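XIAP and 6 other genes that hold caspases in check or release them were followed on 6 Affymetrix U133 Plus 2.0 arrays of JJN3, an established human myeloma cell line. In 3 of them the cells expressed an shRNA (a short hairpin RNA that lowers a chosen transcript) directed at CKS1B, while 3 came from cells with a scrambled shRNA. The CKS1B protein binds cyclin-dependent kinases. All cells had been transduced with virus. Arrays are lettered A to C within each group, scrambled array B having 1 extra word in its title whose meaning is unknown. Whether a group's arrays stem from different cultures or clones is not stated. The genes are XIAP, BIRC2, BIRC3, BIRC6, DIABLO, HTRA2 and CFLAR. They were taken by function, but the group was selected on XIAP, which an earlier pass over these same arrays had found among the genes of smallest p between the shRNAs. The differences between the groups are therefore given as a description, with no p-value printed for any single one of these genes. Counts of their probe sets past a limma threshold are given later, and not as evidence about them. A probe set, the set of short oligonucleotides that reads 1 transcript region, was taken where the platform annotation names it with exactly 1 gene, matched by Entrez identifier. That gave 27 of the 54613 probe sets other than controls, for 6 of the 7 genes and out of 19777 genes named. XIAP had 7 probe sets, CFLAR 14, BIRC6 and HTRA2 2 each, and BIRC2 and DIABLO 1 each. BIRC3 had no probe set named for it and is not analysed here.

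Caspases are proteases that dismantle a cell in apoptosis. Inhibitor of apoptosis proteins (IAPs) hold them in check: XIAP binds and blocks caspases directly, BIRC2 (cIAP1) acts mainly as a ubiquitin ligase in TNF receptor and NF-kB signalling, and BIRC6 is a very large protein that joins a BIR domain to a ubiquitin-conjugating domain. DIABLO (Smac) and HTRA2 (Omi) lie in mitochondria and, once released into the cytosol, bind IAPs through a short motif at their processed N terminus and so free the caspases. CFLAR (c-FLIP) resembles an initiator caspase without its protease activity and competes at death receptors. In myeloma, IAPs are of interest because compounds that imitate DIABLO degrade or block them.

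Levels are MAS5 intensities on a linear scale, and mean ± SD is over the 3 arrays of a group (n = 3). The values of a group's arrays are always listed for A, then B, then C. Each difference subtracts the scrambled mean, on the log2(value + 16) scale, with the SE from limma fitted over all probe sets. That scale understates the change of dim probe sets. The targeted transcript was lower on every CKS1B shRNA array. The only CKS1B probe set read 481, 269 and 828 with the CKS1B shRNA, against 8266, 8441 and 7294 with the scrambled shRNA. The log2 difference was -4.02 (SE 0.44), with p = 0.1 in an exact permutation test (two-sided), which 3 arrays against 3 cannot go below. CKS1B shRNA array B stood apart. Its log2 values had an SD of 1.61, against 1.83 to 2.24 on the other 5 arrays, and its Pearson r with them was at most 0.610. Its 3'/5' ratio of the actin controls, which is high in degraded RNA or 3'-biased labelling, was 12.4. The ratio was next highest on CKS1B shRNA array C, at 2.93, against 1.05 to 1.66 elsewhere. Results without CKS1B shRNA array B thus rest on array A and on array C with its raised ratio. In SD, r and median intensity, scrambled array C departed less than CKS1B shRNA array B, in the same direction. Its SD was 1.83, against 2.20 to 2.24 on the arrays other than these, and its highest r with any array was 0.891. Its median intensity was 202, against 334 on CKS1B shRNA array B and 117.5 to 136 elsewhere. Of 8 plasma cell markers 7 lay above the median level of all probe sets, and their summed intensity was 31399, 15421 and 21311 with the CKS1B shRNA, against 31647, 31135 and 24042 with the scrambled shRNA. Markers of other cells were uneven within their lists. MS4A1 (CD20, a B cell antigen) read 4578 to 7996 over the 6 arrays, but PAX5 42.9 to 287 and CD22 94 to 440. EPCAM (an epithelial antigen) read 438 to 2188, but KRT8 165 to 589, KRT18 288 to 691.5 and CDH1 17.9 to 190.5. Of the monocyte markers, CD14 read 8.2 to 73.3 and CD163 9.3 to 88.1 on all arrays but CKS1B shRNA array B. On that array they read 438 and 307, while CSF1R read 68.3 to 201.5 over the 6 arrays. Stroma markers summed to 582, 1722 and 1111 with the CKS1B shRNA, against 916, 1127.5 and 1392 with the scrambled shRNA. The T cell markers summed to 405, 3324 and 528 with the CKS1B shRNA, against 300.1, 640 and 1003 with the scrambled shRNA. On CKS1B shRNA array B dim probe sets as a whole read higher than on the scrambled arrays. Over 20 bins of scrambled level, the median log2 shift there was 2.14 in the dimmest and -1.79 in the brightest. The part of this in the marker readings of that array was not tested. The labels name no cells other than JJN3. In bulk RNA, fewer cells of a type and less RNA per cell cannot be told apart.

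XIAP, which binds caspases directly, had 3 of 7 probe sets in which the lowest CKS1B shRNA array exceeded the highest scrambled array, and the groups overlapped in the other 4. Of all probe sets 4.17% read higher without overlap, and XIAP had been chosen on this same comparison. The brightest, 228363_at, read 1153, 2325 and 1900 with the CKS1B shRNA, against 706, 739 and 441 with the scrambled shRNA. All 3 CKS1B shRNA arrays were high, array A least. Its mean was 1793 ± 594 with the CKS1B shRNA and 628.5 ± 163.5 with the scrambled shRNA (SD, n = 3), a log2 difference of 1.47 (SE 0.40), or 2.76-fold higher. Leaving out CKS1B shRNA array B gave 1.25 (SE 0.33), or 2.38-fold.

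The second probe set, 235222_x_at, read 433.5, 1874 and 731 with the CKS1B shRNA, against 284, 306 and 179 with the scrambled shRNA. Array B was the highest by far, and the groups did not overlap without it either. With 6 arrays the log2 difference was 1.69 (SE 0.54), against 1.12 without CKS1B shRNA array B. The suffix _x marks probe sets with probes that match other sequences too, so their reading need not come from XIAP alone. The next, 243026_x_at, read 312, 1012 and 395 with the CKS1B shRNA, against 223.5, 234 and 289 with the scrambled shRNA. Its gap between the groups was narrow, with array A just above scrambled array C. The log2 difference was 0.98 (SE 0.51), and 0.48 without CKS1B shRNA array B.

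Another pair of XIAP probe sets was high on CKS1B shRNA array A and low on array B. 225858_s_at read 712, 139.5 and 397 with the CKS1B shRNA, against 257, 223 and 251 with the scrambled shRNA. Arrays A and C lay above all scrambled arrays and array B below them. With 6 arrays the log2 difference was 0.47 (SE 0.59), against 1.08 (SE 0.40) without CKS1B shRNA array B, where the groups did not overlap. Its companion 225859_at read 596, 230 and 323 with the CKS1B shRNA, against 375, 258 and 231 with the scrambled shRNA. Only array A lay above all scrambled arrays, and the log2 difference was 0.32 (SE 0.49), or 0.61 without CKS1B shRNA array B.

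The 2 dimmest XIAP probe sets did not share the higher reading on CKS1B shRNA arrays A and C. 206536_s_at read 142.5, 630 and 87.8 with the CKS1B shRNA, against 134, 150 and 141.5 with the scrambled shRNA. Its log2 difference of 0.48 (SE 0.73) came from array B and was -0.30 without it. 206537_at read 60, 116 and 119 with the CKS1B shRNA, against 92.1, 125 and 239 with the scrambled shRNA. Its log2 difference was -0.51 (SE 0.70), and -0.63 without CKS1B shRNA array B. Both lay near the median level of all probe sets, an intensity of about 146, and 206537_at was below it. The deposited table used here has no detection calls, so whether such probe sets stood above background is unknown.

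**Figure D1:**
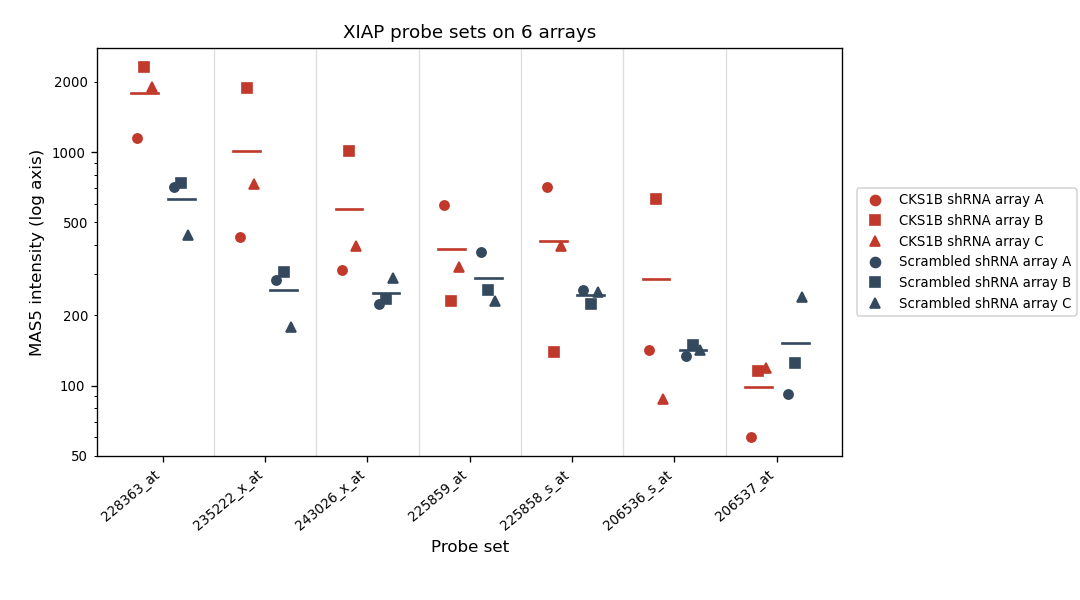
MAS5 intensity (log axis) of the 7 XIAP probe sets, brightest left; red marks are CKS1B shRNA arrays, dark marks scrambled shRNA arrays, the shape gives the letter and bars are group means. The 3 probe sets at the left separate the groups, while CKS1B shRNA array B (red squares) is the highest of 6 arrays in 4 probe sets and the lowest in 2.

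The XIAP probe sets agreed in direction for 15 of their 21 pairs with 6 arrays (71.4%) and for 11 of 21 (52.4%) without CKS1B shRNA array B. Over the 10523 genes with at least 2 probe sets these shares were 54.6% and 57.3%. The log2 differences of XIAP spanned 2.20 units from lowest to highest, against a median span of 1.69 among the 170 genes with 7 probe sets. As a measure of how alike 2 probe sets move, each profile over the 6 arrays was centred on its mean, and the root mean square of the difference was taken in log2 units. It was 0.37 between 228363_at and 235222_x_at, and 0.06 without CKS1B shRNA array B. It was 0.37 between 225858_s_at and 225859_at as well. Between those pairs it was 0.91 to 1.42 with 6 arrays and 0.57 to 0.62 without CKS1B shRNA array B. The median over the 21 XIAP pairs was 0.97, against 0.87 over all 42426 pairs of probe sets of a gene, and 0.60 against 0.62 without CKS1B shRNA array B. Probe sets share their arrays and are not replicates.

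Because the shift of all probe sets on array B depended on their level, each XIAP probe set was set beside the 500 probe sets nearest to it in mean scrambled level. On CKS1B shRNA array A, 5 XIAP probe sets lay above all scrambled arrays (16.5% of all probe sets did) and 1 below (30.8%). On array B, 4 lay above (55.8%) and 2 below (21.4%). On array C, 4 lay above (22.4%) and 1 below (29.4%). For 228363_at the log2 shift from the scrambled mean was 0.89, 1.90 and 1.61 on arrays A, B and C, where the nearest 500 had median shifts of -0.04, -0.02 and -0.07. For 235222_x_at the shifts were 0.76, 2.83 and 1.49, beside -0.25, 0.67 and -0.14. For 225858_s_at they were 1.49, -0.74 and 0.67, beside -0.26, 0.62 and -0.15. These 3 probe sets stood above probe sets of like level on arrays A and C, and the first pair also on array B. For 243026_x_at the shifts were 0.32, 1.96 and 0.64, beside -0.25, 0.61 and -0.14, above on all 3 arrays. For 225859_at they were 1.04, -0.28 and 0.19, beside -0.30, 0.57 and -0.17, above on arrays A and C only. The dimmest pair differed. 206536_s_at had shifts of 0.01, 2.04 and -0.60, beside -0.35, 1.06 and -0.11, and so lay below probe sets of like level on array C. 206537_at had shifts of -1.05, -0.25 and -0.22, beside -0.34, 1.02 and -0.12, below on all 3 arrays. The part of array B's RNA quality and compressed scale in its values was not tested.

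**Figure D2:**
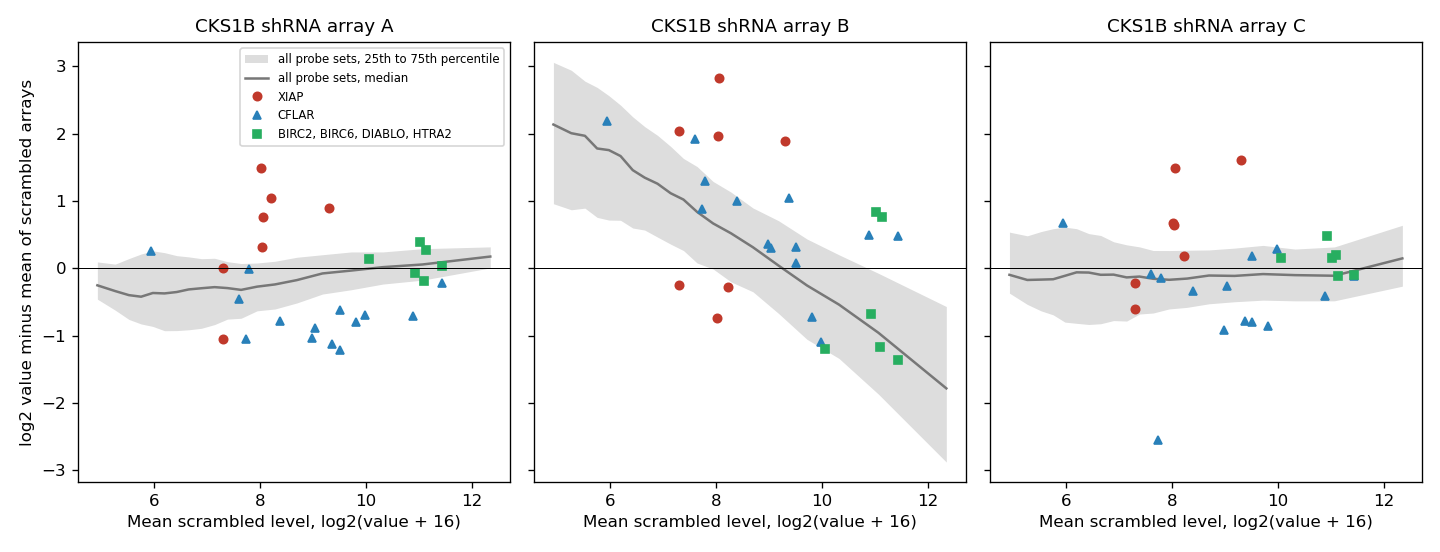
For each CKS1B shRNA array, the log2 value minus the mean of the scrambled arrays (vertical axis) against the mean scrambled level, log2(value + 16) (horizontal axis); the line and band are the median and the 25th to 75th percentile of all probe sets in 20 bins of level. On array B the band slopes down from 2.14 in the dimmest bin to -1.79 in the brightest, while on arrays A and C it stays near 0; most XIAP points lie above the band on arrays A and C and most CFLAR points below it on array A.

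The brightest XIAP probe set was also compared with 12662 other genes, each by its brightest probe set at or above the median level. The 5 genes with the smallest root mean square difference over the 6 arrays were FLYWCH1 (0.16), TNPO1 (0.19), INSR (0.20), SUFU (0.20) and CNPY3 (0.21), where the median gene had 1.0. FLYWCH1 read 1032, 1883 and 1421 with the CKS1B shRNA, against 663, 753 and 452 with the scrambled shRNA. INSR, the insulin receptor, read 370, 656 and 413 with the CKS1B shRNA, against 198, 181 and 136 with the scrambled shRNA. In all 5 genes, as in XIAP, CKS1B shRNA array B was the highest array and scrambled array C the lowest. The likeness was sought over the same arrays and is a description.

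Among the ubiquitin ligases of the family, BIRC2 read higher on CKS1B shRNA arrays A and B than on any scrambled array, while array C lay within the scrambled range. Its probe set, 202076_at, read 2697, 3695 and 2288 with the CKS1B shRNA, against 1943, 2628 and 1698 with the scrambled shRNA. The mean was 2893 ± 724 with the CKS1B shRNA and 2090 ± 482 with the scrambled shRNA (SD, n = 3). The log2 difference was 0.46 (SE 0.40), and 0.27 (SE 0.27) without CKS1B shRNA array B. On array B its log2 shift was 0.84, where the nearest 500 probe sets had a median of -0.86.

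BIRC6 read lowest on CKS1B shRNA array B in both of its probe sets, and array A also lay just below all scrambled arrays in the first. 224635_s_at read 1902, 960 and 2486 with the CKS1B shRNA, against 2227, 2390 and 1924 with the scrambled shRNA. 233093_s_at read 1853, 1204 and 2714 with the CKS1B shRNA, against 1878, 2129 and 1823 with the scrambled shRNA. Both probe sets moved alike, with a root mean square difference of 0.19 over the 6 arrays, and array C was the highest of the 6 in each. The log2 differences were -0.39 (SE 0.43) and -0.09 (SE 0.40), and 0.00 (SE 0.25) and 0.21 (SE 0.26) without CKS1B shRNA array B. The log2 shifts on array B, -1.16 and -0.68, were close to those of the nearest 500 probe sets, -1.03 and -0.84.

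Of the mitochondrial antagonists of IAPs, DIABLO gave overlapping groups. Its probe set, 219350_s_at, read 2820, 1053 and 2570 with the CKS1B shRNA, against 2903, 3277 and 2182 with the scrambled shRNA. Arrays A and C lay inside the scrambled range. The log2 difference of -0.48 (SE 0.46) came from array B and was -0.03 (SE 0.26) without it. On array B its shift was -1.37, beside -1.14 for the nearest 500.

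The 2 probe sets of HTRA2, the serine protease of this pair, went opposite ways on CKS1B shRNA array B. 203089_s_at read 2687, 3785 and 2057 with the CKS1B shRNA, against 2162, 2364 and 2171 with the scrambled shRNA. 211152_s_at read 1170, 450 and 1183 with the CKS1B shRNA, against 984, 1100 and 1091 with the scrambled shRNA. Array B was thus the highest of 6 arrays for the first and the lowest for the second. Their log2 differences were 0.30 (SE 0.39) and -0.30 (SE 0.43), and 0.08 (SE 0.25) and 0.15 (SE 0.27) without CKS1B shRNA array B. The root mean square difference between them was 0.75 over the 6 arrays and 0.14 without that array. Without it, 211152_s_at did not overlap between the groups, though by a small margin.

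**Figure D3:**
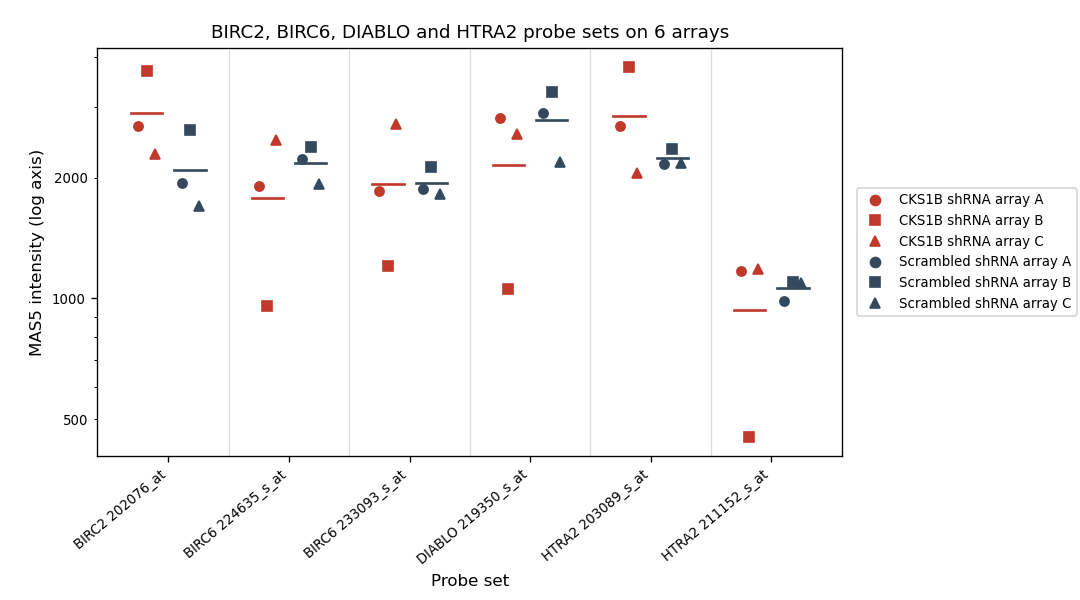
MAS5 intensity (log axis) of the 6 probe sets of BIRC2, BIRC6, DIABLO and HTRA2; red marks are CKS1B shRNA arrays, dark marks scrambled shRNA arrays, the shape gives the letter and bars are group means. CKS1B shRNA array B (red squares) is the highest array for BIRC2 and the first HTRA2 probe set and the lowest for the other 4, and the groups overlap in all 6.

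CFLAR, the decoy of caspase activation at death receptors, lay mostly below the scrambled arrays on CKS1B shRNA array A. On array A 11 of its 14 probe sets lay below all scrambled arrays (30.8% of all probe sets did) and 1 above (16.5%). On array C 6 lay below (29.4%) and 2 above (22.4%). On array B 9 lay above (55.8%) and 2 below (21.4%). These counts were near the shares of all probe sets, but on that array the shares depend on level. The median log2 shift over the 14 probe sets was -0.75, 0.49 and -0.30 on arrays A, B and C. The median of the corresponding values for the nearest 500 probe sets was -0.09, 0.00 and -0.12. By these medians CFLAR stood above probe sets of like level on array B and below them on arrays A and C. Of the 14 probe sets 9 carry the suffix _x and they overlap in target, so the counts are not of independent measurements.

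The brightest CFLAR probe set, 209939_x_at, read 2359, 3839 and 2545 with the CKS1B shRNA, against 2897, 2742 and 2625 with the scrambled shRNA. Arrays A and C lay below all scrambled arrays, array C by a small margin, and array B above them. With 6 arrays the log2 difference was 0.05 (SE 0.40), against -0.17 (SE 0.24) without CKS1B shRNA array B. The next, 210563_x_at, read 1140, 2669 and 1417 with the CKS1B shRNA, against 1790, 2110 and 1767 with the scrambled shRNA. It had the same order, with log2 differences of -0.21 (SE 0.41) and, without CKS1B shRNA array B, -0.56 (SE 0.26).

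The one CFLAR probe set that read lower on all 3 CKS1B shRNA arrays was 210564_x_at. It read 503, 530 and 480 with the CKS1B shRNA, against 678, 1294 and 794 with the scrambled shRNA. The CKS1B shRNA arrays were close together and scrambled array B was far above the rest. Its mean was 504 ± 25.3 with the CKS1B shRNA and 922 ± 327 with the scrambled shRNA (SD, n = 3). The log2 difference was -0.80 (SE 0.38), and -0.83 (SE 0.33) without CKS1B shRNA array B. The one that read higher on all 3 was the dimmest, 217654_at, with 57.2, 263 and 81.9 with the CKS1B shRNA, against 34.5, 53.4 and 49.6 with the scrambled shRNA. Its level was below the median of all probe sets, and its log2 difference was 1.04 (SE 0.81), or 0.47 without CKS1B shRNA array B.

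Several CFLAR probe sets also spread widely among the scrambled arrays. 208485_x_at read 286, 1348 and 370 with the CKS1B shRNA, against 359, 701.5 and 1061 with the scrambled shRNA. 211862_x_at read 299, 759 and 402 with the CKS1B shRNA, against 443, 814 and 1008 with the scrambled shRNA. Scrambled array A was the lowest scrambled array in 11 of the 14 CFLAR probe sets, and in 38.8% of all probe sets. 214618_at ranged most, with 86.6, 376 and 20 with the CKS1B shRNA, against 116, 205 and 312 with the scrambled shRNA. Its log2 difference was -0.91 (SE 0.88), and -1.80 (SE 0.68) without CKS1B shRNA array B. The log2 differences of 208485_x_at and 211862_x_at were -0.29 and -0.65, and -0.95 and -1.01 without CKS1B shRNA array B. The remaining probe sets, 211316_x_at, 237367_x_at, 209508_x_at, 211317_s_at, 214486_x_at, 235427_at and 239629_at, overlapped between the groups, with log2 differences of -0.53 to 0.46, and -0.97 to -0.08 without CKS1B shRNA array B.

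Over its 14 probe sets CFLAR had 4 log2 differences above 0 and 10 below, with a median of -0.25 and a range of -0.91 to 1.04. Without CKS1B shRNA array B 1 was above 0 and 13 below, with a median of -0.56 and a range of -1.80 to 0.47. Most genes also lay below 0 there: of all genes, each by its brightest probe set, 41.1% lay above 0, against 52.6% with 6 arrays. The direction of the CFLAR probe sets depended on scaling as well. After quantile normalization, which gives every array the same distribution, 6 were above 0 and 8 below with 6 arrays, and 2 above and 12 below without CKS1B shRNA array B. The share of its 91 pairs with the same sign was 56.0% with 6 arrays and 85.7% without CKS1B shRNA array B. The median root mean square difference of its pairs was 0.60, against 0.87 over all pairs of a gene.

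**Figure D4:**
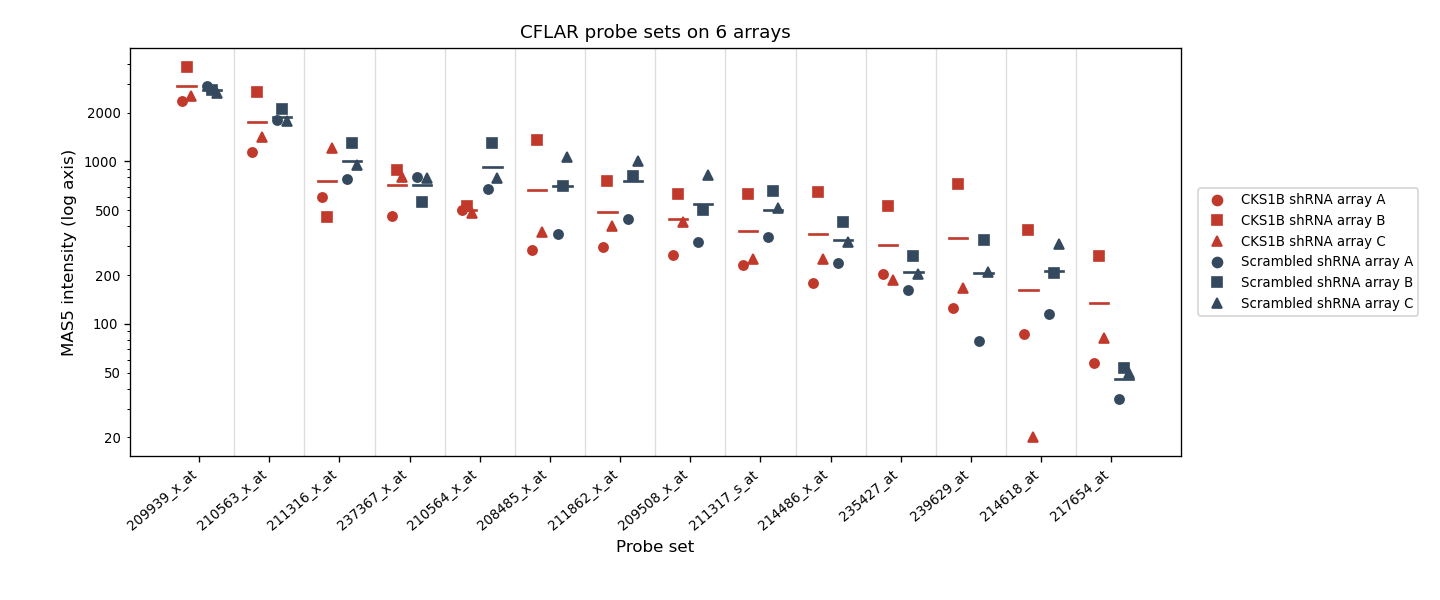
MAS5 intensity (log axis) of the 14 CFLAR probe sets, brightest left; red marks are CKS1B shRNA arrays, dark marks scrambled shRNA arrays, the shape gives the letter and bars are group means. CKS1B shRNA array A lies below all scrambled arrays in 11 probe sets. Array C lies below them in 6, within their range in 6 and above them in 2, and array B (red squares) lies above them in 9. The groups separate only for 210564_x_at and 217654_at.

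Taken over the 27 probe sets, the groups did not overlap in 5. With the CKS1B shRNA 4 read higher (3 of XIAP and 1 of CFLAR), where 4.17% of all probe sets did, and 1 of CFLAR read lower, where 3.6% did. Without CKS1B shRNA array B 6 were higher (4 of XIAP, 1 of HTRA2 and 1 of CFLAR), where 7.99% of all probe sets were, and 6 were lower, all of CFLAR, where 13.7% were. The comparison had a part in the choice of the genes, so these counts are not evidence about them. At an adjusted p of 0.05 in limma over all probe sets, 0 of the 27 passed and 0% of all probe sets did. At an unadjusted p of 0.05 in limma 2 passed, both of XIAP, where 1.77% of all did. Without CKS1B shRNA array B 0 passed adjusted (0.0201% of all) and 9 unadjusted, 3 of XIAP and 6 of CFLAR (5.66% of all). XIAP had been singled out for its small p in this same comparison. The unadjusted counts are in part set by that choice and are not evidence about the genes either. The median log2 difference of all probe sets was 0.12 with 6 arrays and -0.15 without CKS1B shRNA array B. Of the 27 probe sets 24 lay at or above the median level, and all 27 were fitted.

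**Figure D5:**
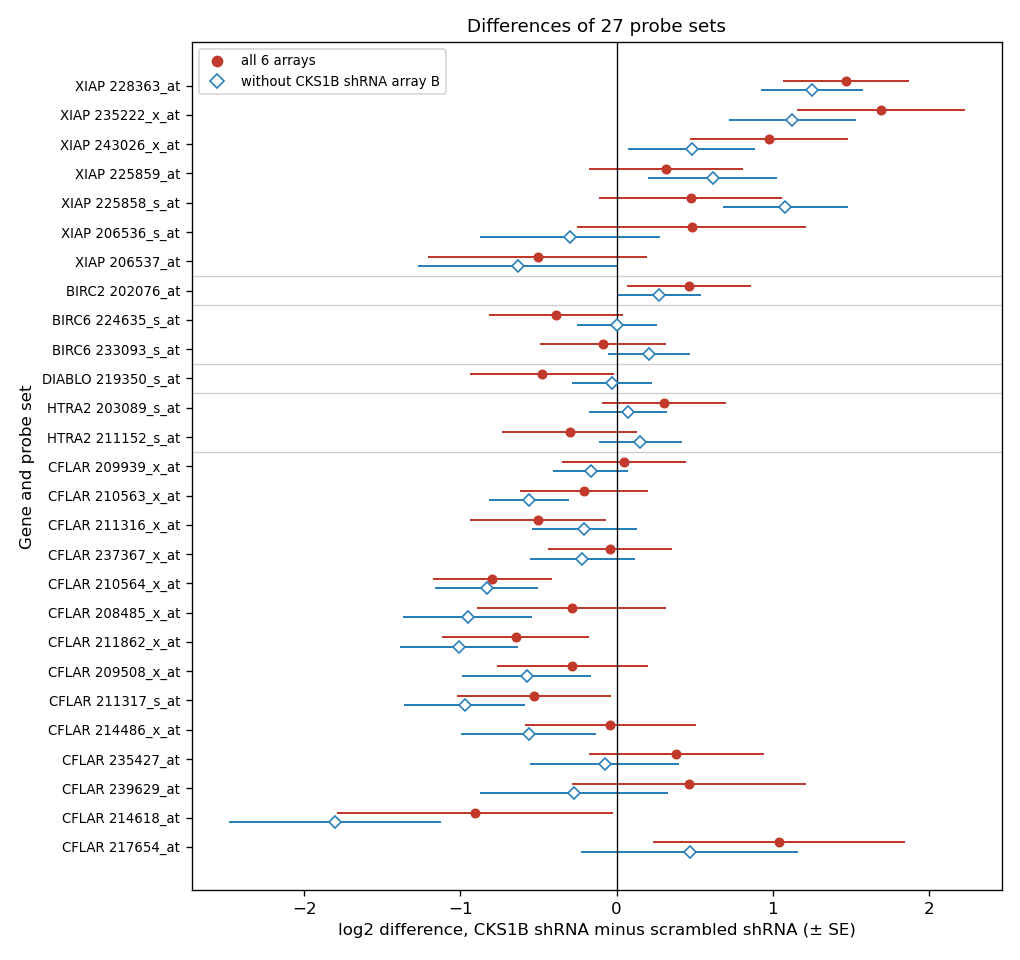
Log2 difference, CKS1B shRNA minus scrambled shRNA, with its SE for the 27 probe sets by gene, brightest first within a gene; filled red circles are all 6 arrays and open blue diamonds leave out CKS1B shRNA array B. Without that array 5 of 7 XIAP probe sets lie above 0 and 13 of 14 CFLAR probe sets below it, and those of BIRC6, DIABLO and HTRA2 lie within 0.21 of 0. Of all genes, each by its brightest probe set, 41.1% lie above 0 without that array.

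The rest of the pathway was read from 3 lists of 28 genes, of which 23 were named on the platform here, each gene by its brightest probe set. In limma over all probe sets 0 of the 23 passed an adjusted p of 0.05 in either direction (adjusted p = 1.0 for each with 6 arrays), and 0 passed an unadjusted p of 0.05 (1.77% of all probe sets did). Without CKS1B shRNA array B 2 of the 23 passed unadjusted in limma, near the 5.66% of all probe sets that did. Of 6 other IAPs and IAP antagonists 1 had a difference above 0 and 5 below, with a median log2 difference of -0.58, against 0.04 over all genes. BIRC5 (survivin, an IAP of dividing cells) read 2397, 348 and 1603 with the CKS1B shRNA, against 2884, 2460 and 2090 with the scrambled shRNA. The low value was that of array B, and its log2 difference of -1.14 was -0.32 without it. AREL1, a ubiquitin ligase for IAP antagonists, had a log2 difference of -0.64, and 0.15 without CKS1B shRNA array B. BIRC7 (livin), dim at 119.9 to 319, had a log2 difference of 0.09, and 0.46 without CKS1B shRNA array B. This list had 2 differences above 0 and 4 below without CKS1B shRNA array B, with a median of -0.53, against -0.11 over all genes.

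Of 8 caspases and apoptosome genes 4 had differences above 0 and 4 below, with a median log2 difference of 0.10, and 6 and 2 without CKS1B shRNA array B, with a median of 0.27. CASP8, the initiator at death receptors that CFLAR resembles, read 2400, 5304 and 2771 with the CKS1B shRNA, against 1648, 2524 and 1713 with the scrambled shRNA. CKS1B shRNA array A lay below scrambled array B, so the groups overlapped (log2 difference 0.76, and 0.42 without CKS1B shRNA array B). CASP9, the initiator of the apoptosome that XIAP blocks, read 682.5, 463 and 574 with the CKS1B shRNA, against 575, 853 and 935.5 with the scrambled shRNA (log2 difference -0.44, overlapping). CASP2 had a log2 difference of 0.49 and CASP6, an effector caspase, one of -0.42. The groups did not overlap in 1 of the 8 genes, CYCS (cytochrome c, which triggers apoptosome assembly), named here after its values were seen. Of all probe sets 4.17% read higher without overlap, and 7.99% without CKS1B shRNA array B. CYCS read 20071, 41828 and 27995 with the CKS1B shRNA, against 16076, 14967 and 16199 with the scrambled shRNA. Its log2 difference was 0.86 (SE 0.85), or 0.59 without CKS1B shRNA array B, where the groups did not overlap either.

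Of 9 partners of BIRC2 in TNF and NF-kB signalling 4 had differences above 0 and 5 below, with a median log2 difference of -0.01, and 5 and 4 without CKS1B shRNA array B, with a median of 0.30. SHARPIN, of the linear ubiquitin assembly complex, read 977, 1125 and 954 with the CKS1B shRNA, against 708, 831 and 430 with the scrambled shRNA. The groups did not overlap, in 1 of the 9 genes, where 4.17% of all probe sets read higher without overlap. The log2 difference of SHARPIN was 0.67, or 0.60 without CKS1B shRNA array B. RNF31, the catalytic subunit of that complex, read 183.5, 778 and 489 with the CKS1B shRNA, against 177, 192 and 187 with the scrambled shRNA. Array A with the CKS1B shRNA fell among the scrambled values (log2 difference 1.10, and 0.66 without CKS1B shRNA array B). TAB2 and TAB3, adaptors of the kinase TAK1, had log2 differences of -0.47 and -0.25.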

How the data were processed

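Total RNA of JJN3 cells was measured on 6 arrays, 3 per group, grouped by their labels. The authors deposited MAS5 intensity on a linear scale, as the submitters' processing notes name it. Its version is not given in the sources used here. Every array had a 2% trimmed mean near 500. Of 54675 probe sets 62 controls were left out. Of the rest 41091 carry 1 gene in the platform annotation, 1801 several and 11721 none. Entrez identifiers of 41037 were found in the RefSeq gene table (GRCh38.p14), used for current symbols only.

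Values were turned into log2(value + 16) and fitted for all 54613 probe sets with limma 3.58.1 in R 4.3.3 (lmFit, eBayes with trend, no covariates), with Benjamini-Hochberg adjustment at 0.05. The fit was tested on simulated data. Summaries used Python 3.11.15, SciPy 1.17.1 and matplotlib 3.10.9. A gene's brightest probe set is that with the highest mean log2 value. Named were all probe sets of the genes, CKS1B, the 2 smallest p per direction and list (fewer where fewer lay in that direction), and the 5 genes most like XIAP. The members, lists and rule were chosen with earlier results of these data known. Because separate cultures are not stated, SDs and p-values may cover technical spread alone. The number of arrays limits precision. Probe sequences were not used here.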

Additional observations from a re-analysis of the deposited data

How the results depend on the processing

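The count of all probe sets past an adjusted p of 0.05 in limma was 0 with 6 arrays. It was 86 with array weights, 16 without both arrays of letter B, 2 with quantile normalization without CKS1B shRNA array B (chosen after seeing the data), 965 at an unadjusted p of 0.05, and 0 to 11 on leaving out 1 array, the 11 without CKS1B shRNA array B. None of the 27 probe sets of the genes passed an adjusted p of 0.05 in any of these fits. The count over all probe sets stayed 0 with pseudocounts of 1 and 64, filters at the median and the 70th percentile, quantile normalization, centring, no trend, 1 probe set a gene, an adjusted p of 0.10 and without both arrays of letter A or C. The count of the 27 probe sets whose groups did not overlap was 5 (of all probe sets 4.17% were higher and 3.6% lower). It was 8, 13 and 11 without both arrays of letters A, B and C, 12 with quantile normalization without CKS1B shRNA array B, and 6 to 12 on leaving out 1 array (12 without CKS1B shRNA array B, 9 without CKS1B shRNA array C). Fewer arrays make separation easier: without CKS1B shRNA array B 7.99% of all probe sets were higher and 13.7% lower. For the other settings the share of all probe sets was not counted. The brightest XIAP probe set kept a log2 difference of 1.16 to 1.85 in all fits of that probe set, against 1.47. The mean over all XIAP probe sets was 0.70, and over those without _s or _x 0.43. Of 507 repeats over the 27 probe sets 458 kept the sign, and 11 probe sets kept it in every one. Repeats with a filter, no trend, the letter as a block or 1 probe set a gene leave the difference itself unchanged by construction. The sign could not change in these, so the 458 overstate how stable it was. CKS1B was -4.41 to -3.63 on leaving out 1 array. The letters were not shown to pair the arrays: deviations from the group means correlated at 0.347, -0.16 and -0.153 for A, B and C. With the letter as a replicate block 0 probe sets passed and the XIAP difference was 1.47 (SE 0.41). What RNA quality did to array B was not tested, and detection above background is unknown.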
